A study of Homo sapiens with 8 samples.

Results

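The genes described here are 8 mucin genes, MUC3A, MUC12, MUC17, MUC1, MUC6, MUC2, MUC5AC and MUC5B, as seen in a map of RNA bound by RBPMS in human embryonic stem cells. Every peak that overlapped the hg19 window of one of these genes by at least 1 base, on the strand of the gene, was taken as a member. This gave 41 of the 194003 peaks listed in the 4 eCLIP libraries, 8, 18, 6 and 9 in libraries 1 to 4. The genes were singled out with the peak values of these libraries known, so their enrichment is given as a description and was not tested. The data go against treating the genes as 1 group: 23 of the 41 peaks lay in MUC3A, and all 23 were enriched, while the other genes held 18 peaks and none was enriched.

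In eCLIP, cells are irradiated with ultraviolet light to link proteins to the RNA they touch, the protein is pulled down with an antibody, and the attached RNA fragments are sequenced. The 4 eCLIP libraries were made from wild-type, control-treated HUES6 cells, a long-established human embryonic stem cell line grown in FTDA medium, with an RBPMS-specific antibody. The 4 input libraries were made from the same kind of cells without an antibody. Per the labels' protocols, cells of both groups were crosslinked at 400 mJ/cm2 in dishes of about 20M, and reads were paired ends of 75 nt. The inputs have no peak list of their own and enter only through the authors' log2 fold of immunoprecipitation over input and its −log10 p for each peak. Since no label traces the libraries to separate cultures, the spread between them may be of technical origin. The lists hold no expression levels, and the identity of the cells was not checked against markers.

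Mucins are large glycoproteins of epithelial surfaces, in which long repeated stretches rich in serine, threonine and proline carry O-linked sugar chains. MUC1, MUC3A, MUC12 and MUC17 are anchored in the cell membrane, whereas MUC2, MUC5AC, MUC5B and MUC6 are secreted and form mucus gels. The repeats are encoded by tandemly repeated exon sequence. RBPMS is an RNA-binding protein with a single RNA recognition motif that is known to favour RNA with paired CAC triplets and to regulate splicing in smooth muscle.

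Library 2 listed 118375 peaks, against 25759, 20254 and 29615 in libraries 1, 3 and 4. Over 315 matched peaks, the read numbers of libraries 3 and 4 differed by less than sampling noise (0.958 for chi-square divided by its degrees of freedom, p = 0.693). The same measure was 3.57 to 4.70 in the other 5 pairs. Matched peaks shared at least 80% of the longer peak, held at least 40 reads together and had exact read numbers and a −log10 p below the ceiling of 15.66. The ceiling alone left out 3 of 5 MUC3A peaks in library 3 and 5 of 7 in library 4. The remaining MUC3A peaks of these libraries did not share 80% of the longer peak. The comparison of libraries 3 and 4 therefore held no MUC3A peak. On the strength of the matched peaks elsewhere, libraries 3 and 4 were counted as 1 sample in every mean ± SD, so that n = 3. The read numbers behind most peaks could be worked back from the deposited values. These numbers rest on a constant per library, set by taking its most frequent positive log2 fold as 3 immunoprecipitation reads over 1 input read. Read as the depth of input over immunoprecipitation, the constant was 3.18, 1.04, 2.12 and 1.46 in libraries 1 to 4.

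A peak was called enriched at a log2 fold of at least 3, which is 8-fold over input, and a −log10 p of at least 3. Of all listed peaks 15.9%, 5.38%, 12.6% and 12.7% met this in libraries 1 to 4, and 8.65% in the 4 lists together. In MUC3A, 5 of 5, 6 of 6, 5 of 5 and 7 of 7 listed peaks met it in libraries 1 to 4. In the other 7 windows the counts were 0 of 3, 0 of 12, 0 of 1 and 0 of 2. The peaks of MUC3A had a median log2 fold of 5.13, 6.21, 6.89 and 6.0 in libraries 1 to 4. The median was 3.25, 1.06, 2.67 and 2.13 for all listed peaks, and 4.47, 4.15, 4.54 and 4.45 for all enriched peaks. The MUC3A values were in view when the gene was chosen, and nothing is read from their distance to the background.

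**Figure D1:**
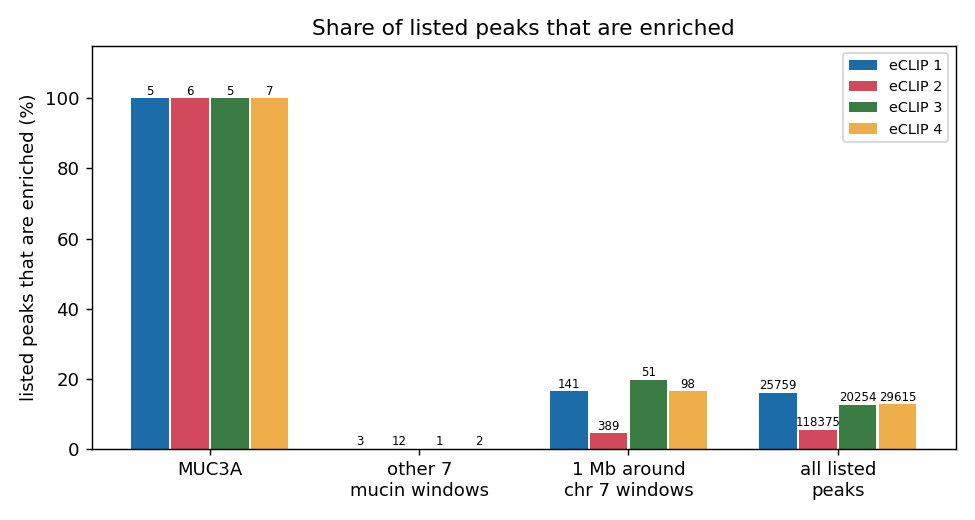
Share of listed peaks that were enriched, in percent, in each eCLIP library (bars), with the number of listed peaks above each bar. All bars of MUC3A stand at 100%, those of the other 7 mucin windows at 0%, and those of all listed peaks between 5.38% and 15.9%.

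MUC3A encodes a membrane-bound mucin of the intestinal surface. Its 23 enriched peaks lay on the plus strand of chromosome 7 between 100550170 and 100551239, a stretch of 1070 bases. The stretch began 3170 bases after the start of the 65 kb window and took up 1.65% of it. No other plus-strand peak was listed in any library within 64219 bases before it or 61990 bases after it, and the nearest enriched ones were 68957 bases before and 230204 bases after it. On the minus strand of the window 3 peaks were listed, all in library 2 and outside the stretch, with log2 folds of 0.06 to 1.38, and none was enriched. No hg19 gene model was used, so whether the stretch is exonic or intronic, and which repeats it holds, is not stated here.

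The stretch held 7 enriched regions, formed by joining enriched peaks of different libraries that shared at least 1 base. Of these, 4 were enriched in all 4 libraries (regions 1, 3, 5 and 7, numbered along the gene) and 3 in only 2 libraries (regions 2, 4 and 6). Region 1 held all 4 libraries only through the peak of library 2. Its library 3 peak ended at 100550311, before those of libraries 4 and 1 began at 100550313 and 100550365. No base of region 1 was thus enriched in all 4 libraries. Of all 7472 enriched regions of the series, 22.7% were enriched in at least 3 libraries and 12.6% in all 4. In the stretch, 728 bases (68.0%) were covered by an enriched peak of at least 1 library and 216 bases by one of every library.

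**Figure D2:**
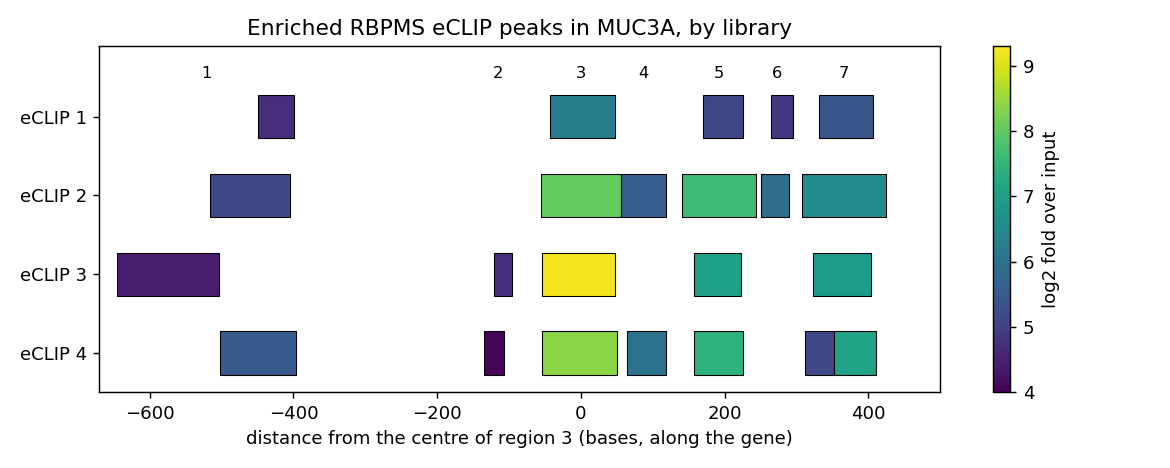
Enriched peaks in MUC3A in each eCLIP library (rows), as boxes along the distance in bases from the centre of region 3, coloured by log2 fold over input, with region numbers above. Boxes of regions 3 and 5 line up in the 4 libraries, region 7 has 2 adjoining boxes in library 4, those of region 1 are offset from each other, and regions 2, 4 and 6 each have boxes in 2 libraries.

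Region 3, positions 100550759 to 100550870, was the leading region of the gene. Its log2 fold was 6.26, 8.02, 9.21 and 8.37 in libraries 1 to 4, a mean of 7.97 over libraries and of 7.69 ± 1.30 over samples (SD, n = 3). Library 1 was the lowest and stood below each of the others. In library 3 this peak had the highest log2 fold of all 20254 listed peaks. Among enriched peaks it ranked 110 of 4107 in library 1, 22 of 6370 in library 2 and 13 of 3749 in library 4. Among the 940 regions of the series that were enriched in all 4 libraries, its mean ranked 4 over libraries and 7 over samples.

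The borders of this region were alike in the 4 libraries. Peaks began within 13 bases of each other, from 100550759 to 100550772, and ended within 9 bases, from 100550861 to 100550870. Those of region 5 began within 30 bases and ended within 20 bases. In region 7 the 5 peaks of the 4 libraries had starts spread over 45 bases and ends over 73 bases. Region 1 was the loosest of the 4, with starts spread over 195 bases and ends over 107 bases.

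Region 5, positions 100550955 to 100551057, had log2 folds of 5.13, 7.65, 7.04 and 7.43 in libraries 1 to 4, and 6.67 ± 1.35 over samples (SD, n = 3). Region 7, positions 100551122 to 100551239, had 5.37, 6.55, 6.89 and 7.07, and 6.30 ± 0.84 over samples. Library 4 had a pair of enriched peaks in region 7, and the value given is the higher; the other, at 100551127 to 100551166, had 5.16, below the 5.37 of library 1. In region 5 library 1 was the lowest, and in region 7 it was the lowest only by the highest peak of each library. Region 1, positions 100550170 to 100550418, had 4.67, 5.15, 4.41 and 5.50, and 4.92 ± 0.24 over samples. Here library 3 was the lowest, by a peak that shared no base with those of libraries 1 and 4. In every library region 3 stood highest and regions 5 and 7 came next, while region 1 was the lowest of these 4. The ranges of mean ± SD over samples of regions 3, 5 and 7 overlapped, and region 1 lay below all of them. These ranges take no account of the regions being measured in the same libraries, in each of which region 3 stood highest. Each pair of libraries gave 3 to 6 pairs of overlapping peaks in the mucin windows. Over these, Pearson's r of the log2 folds was 0.81 to 0.97 and Spearman's rho 0.50 to 1. Against library 4, the region 7 peak of each other library was paired with both library 4 peaks, so its value is repeated. These describe few points: for libraries 1 and 4, r was 0.83 over 6 pairs and 0.69 over the 5 that remain without the MUC2 peaks. Library 1 had the deepest input relative to its immunoprecipitation, and the part of this in its lower folds was not tested.

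The remaining regions were narrower and were missed by 2 libraries each. Region 2, positions 100550680 to 100550718, was enriched in libraries 3 and 4 at log2 folds of 4.73 and 4.05. Region 4, positions 100550871 to 100550933, was enriched in libraries 2 and 4 at 5.54 and 6.0. Region 6, positions 100551066 to 100551109, was enriched in libraries 1 and 2 at 4.84 and 5.87. Regions 4 and 6 lay in the gaps between regions 3, 5 and 7, at most 21 bases from their neighbours, so that library 2 had an almost closed row of peaks over regions 3 to 7.

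**Figure D3:**
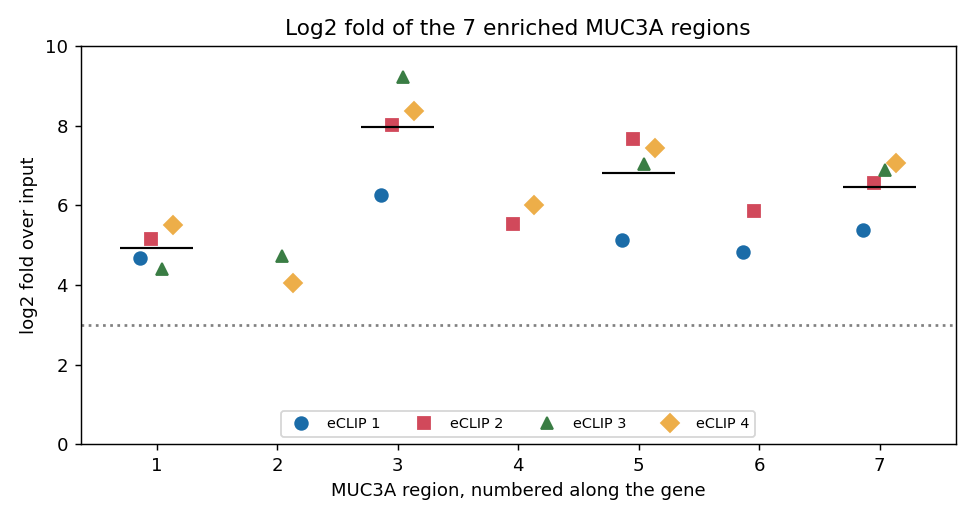
Log2 fold over input of the 7 enriched MUC3A regions in each eCLIP library (symbols), with the mean over libraries (line) for regions enriched in all 4 and the threshold of 3 as a dotted line. Region 3 is highest in every library, and library 1 lies below the others in regions 3, 5 and 7, where the highest peak of each library is drawn.

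Neighbouring enriched peaks of a library lay 49 to 465.5 bases apart, centre to centre, with a median of 105 bases over 19 distances. The median was 142.5, 95.5, 183.5 and 109.25 bases in libraries 1 to 4. From region 3 onwards the centres of successive regions were 87.5, 104, 81.5 and 93 bases apart. Region 1 stood off from this row, 405 bases before region 2. The median width of the MUC3A peaks was 68 bases, against 82 bases for all enriched peaks of the series. Without sequence of this build the spacing could not be set against the length of the repeat unit.

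Other places of the series had as many regions side by side. Within 1000 bases of the centre of region 3 there were 4 reproducible regions, that is, regions enriched in at least 3 libraries, region 3 included. Over all 1699 reproducible regions the median of this count was 2, and 282 regions (16.6%) had at least 4.

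Many reads stood behind these peaks, and few reads behind their inputs. For 22 of the 23 peaks the deposited values allow at most 4 input reads, and in the exception, region 3 in library 1, the input held at least 8. In region 3 there were at least 193 immunoprecipitation reads in library 1, 749 over 3 input reads in library 2, between 279 over 1 and 1116 over 4 in library 3, and 455 over 2 or 910 over 4 in library 4. In region 1 the numbers were 8, 34, 10 and 31 immunoprecipitation reads in libraries 1 to 4, each over at most 1 input read. An input of 0 cannot be told from 1, so a fold over 1 input read depends on how the authors treated 0. Read numbers count sequenced reads, and such counts cover counting error only.

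**Figure D4:**
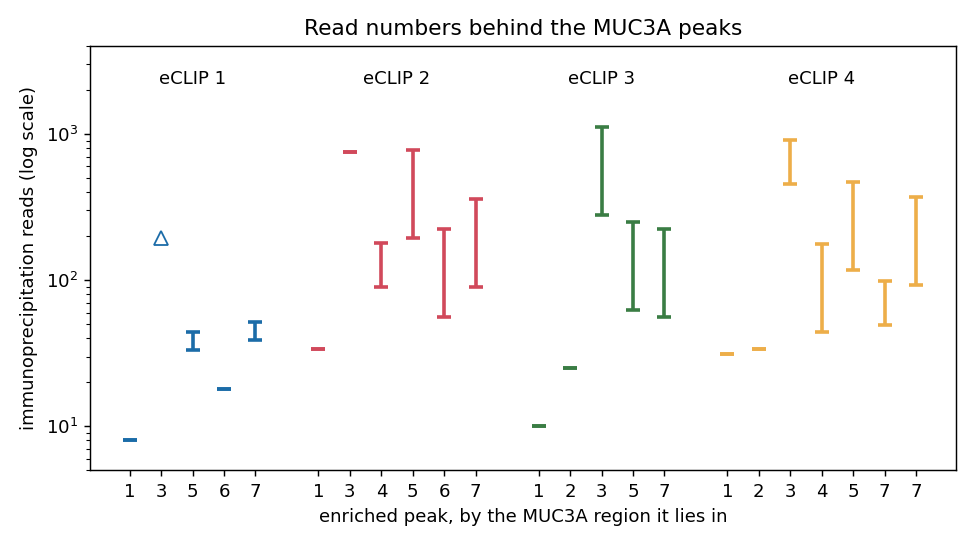
Immunoprecipitation reads (log scale) behind each of the 23 enriched MUC3A peaks, grouped by eCLIP library, with the region under each. Bars span the lowest to the highest number that the deposited values allow, single ticks are exact numbers, and the open triangle of region 3 in library 1 is a lower limit of 193.

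The −log10 p of 16 of the 23 peaks lay at or above the ceiling of 15.66, which has no order. Among all enriched peaks 27.2% did so. The other 7 ran from 4.05 to 10.8. The lowest belonged to region 1 in library 3, which rested on 10 reads over 1.

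MUC12 and MUC17, membrane mucins of the gut, follow MUC3A on the same strand of chromosome 7. MUC12 held 8 listed peaks, 1, 6, 1 and 0 in libraries 1 to 4, spread over 33627 bases between 100613230 and 100646856. Their log2 folds ran from 0.65 to 3.25 with −log10 p of 0.17 to 1.72, and none was enriched. Each rested on 3 to 9 immunoprecipitation reads over 1 or 2 input reads, and no peaks of different libraries overlapped. The highest fold was 3.25 in library 1, from 3 reads over 1, and the lowest p belonged to 8 reads over 1 in library 2, with a log2 fold of 3.06. On the opposite strand of MUC12 6 peaks were listed and none was enriched. MUC17 had no listed peak in any library on either strand.

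Peaks of other genes were listed around these 3 windows. Within 1 Mb on either side, outside the windows, 23 of 141, 17 of 389, 10 of 51 and 16 of 98 listed peaks were enriched in libraries 1 to 4, which is 16.3%, 4.37%, 19.6% and 16.3%, against 15.9%, 5.38%, 12.6% and 12.7% of the whole lists. The share was the higher one in libraries 1, 3 and 4 and the lower one in library 2. Their highest log2 fold was 6.75, and 5 reproducible regions lay among them.

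MUC1 encodes a membrane mucin of many glandular epithelia. It had 5 listed peaks on the minus strand of chromosome 1, between 155160763 and 155161721, all in library 2, the longest list. Their log2 folds were 0.06 to 2.38, their −log10 p at most 0.93, and the 4 with known read numbers rested on 3 to 6 immunoprecipitation reads over 1 or 2 input reads. Libraries 1, 3 and 4 listed none, and none of the 5 was enriched.

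MUC2 encodes the main gel-forming mucin of the intestine. Its 5 listed peaks, 2, 1, 0 and 2 in libraries 1 to 4, sat close together on the plus strand of chromosome 11, within 663 bases between 1092693 and 1093355. The peak at 1092823 to 1092906 in library 1 was the nearest to the thresholds of all peaks outside MUC3A. It had a log2 fold of 4.25 and a −log10 p of 2.98, from 6 immunoprecipitation reads over 1 input read, where the thresholds needed 7 over 1 in that library. Library 4 listed an overlapping peak, 1092856 to 1092912, at a log2 fold of 2.13 from 3 reads over 1. This was the single overlap between libraries outside MUC3A. The other 3 peaks had log2 folds of 1.65 to 3.25, from 3 reads over 1 each.

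Just inside the thresholds, the lowest log2 fold in MUC3A was 4.05, in region 2 of library 4, from 34 immunoprecipitation reads over 3 input reads. Among the 18 peaks that were not enriched, 4 had a log2 fold of at least 3 and missed the p. Over 1 input read the thresholds needed 7, 13, 8 and 10 immunoprecipitation reads in libraries 1 to 4.

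**Figure D5:**
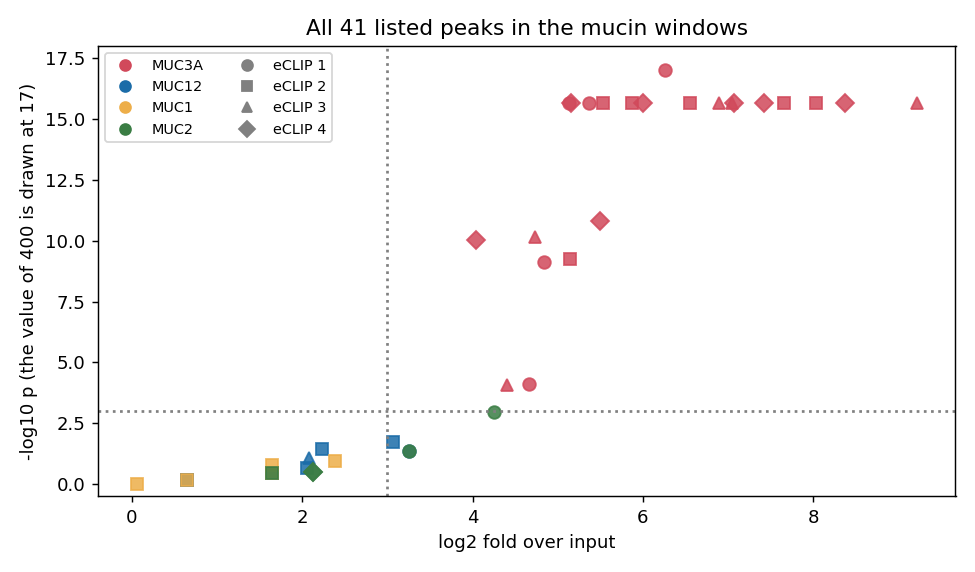
All 41 listed peaks in the mucin windows by log2 fold over input and −log10 p, coloured by gene and shaped by eCLIP library, with the thresholds of 3 as dotted lines. The 23 MUC3A peaks fill the upper right, and the 18 peaks of MUC12, MUC1 and MUC2 lie below the p threshold, the nearest being MUC2 in library 1 at 2.98.

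The secreted mucins MUC6, MUC5AC and MUC5B, which line stomach and airways, had no listed peak in any library on either strand. With MUC17 they make 4 of 8 genes with none. A list holds only places where the authors' procedure called a peak, so this gives no upper limit on their reads, and peak lists from bulk cells cannot tell fewer transcribing cells from less RNA per cell. Within 1 Mb of the chromosome 11 windows, outside them, 54 of 232, 52 of 532, 26 of 92 and 29 of 157 peaks were enriched in libraries 1 to 4, and 15 reproducible regions lay there. These are 23.3%, 9.77%, 28.3% and 18.5%, above the 15.9%, 5.38%, 12.6% and 12.7% of the whole lists in every library; the difference was not tested. Around MUC1 9 of 83, 7 of 273, 5 of 34 and 4 of 69 were enriched, which is 10.8%, 2.56%, 14.7% and 5.80%.

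By share of enriched peaks, MUC3A stood at 100% in each library, and MUC12, MUC1 and MUC2 at 0% in each library that listed them. The whole lists stood at 5.38% to 15.9%, so 0 among so few peaks does not set MUC12, MUC1 and MUC2 apart from the lists. Among 9 further mucin genes, whose hg19 windows were written by hand and not checked against an annotation of that build, MUC4 was the only one with enriched peaks. This large membrane mucin had 154 enriched of 155 listed peaks, 37, 53, 32 and 32 in libraries 1 to 4, and 23 reproducible regions. The median log2 fold of its listed peaks was 5.18, 5.94, 5.51 and 5.52 in libraries 1 to 4, where MUC3A had 5.13, 6.21, 6.89 and 6.0. MUC16 had 3 listed peaks, all in library 2, with none enriched, and the windows of MUC7, MUC13, MUC15, MUC19, MUC20, MUC21 and MUC22 had none listed, which holds only as far as those coordinates are right.

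MUC3A is a repeated gene with a closely related copy, MUC3B, which has no window of its own here. The sources used here do not say how reads that match several repeats or copies were placed, and reads from such a copy cannot be told apart from MUC3A reads. The part of this in the MUC3A peaks was not tested.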

How the data were processed

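The authors' deposited lists, 1 per eCLIP library and not pooled, give for each peak a −log10 p and a log2 fold of immunoprecipitation over input. The build is hg19, per the submitters' processing notes. The sources used here name no aligner or peak caller and do not say which input entered which list. The 8 genes, the further mucin genes and all thresholds were chosen with earlier results of these data known. Read numbers were worked back from each pair of values as 2 whole numbers whose ratio, times a constant per library, gives the fold. Their computed p had to equal the listed one to a relative tolerance of 0.003. It came from a 2-sided binomial test, which stood in for Fisher's exact test with library totals taken as very large. Where neither number was below 5, a chi-square test with continuity correction was used. A p at the ceiling of 15.66 was taken as Fisher's test below 2.2e-16 and a value of 400 as a chi-square p of 0. Below the ceiling, 89.9% to 97.0% of peaks with a positive log2 fold got unique numbers. The method was tested on simulated data made with the same constants, which cannot tell how the authors computed p or whether the constants are right. Named regions are the leading region of a gene, by mean log2 fold among those enriched in the most libraries, and up to 5 further reproducible ones. Regions 2, 4 and 6 of MUC3A fall outside this rule and were named after their values were seen. Python 3.11.15 was used with pandas 2.3.3, numpy 2.4.6, scipy 1.17.1 and matplotlib 3.10.9. Alternatives were a stricter p, looser folds, another overlap, a minimum of reads and each library left out.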

Additional observations from a re-analysis of the deposited data

Results flagged for a closer look

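With libraries 3 and 4 taken singly, 23 quantities were compared over the libraries and 5 had a library standing apart by Dixon's criterion. The criterion flags about 1 in 20 groups of continuous, normal values, which would be about 1.15 here. Small tied counts do not meet that condition: with 3 equal values the distance is 1 whatever the other value, so 5 cannot be set against 1.15. In all 5 the library standing apart was library 2, with the longest list. All 5 count listed peaks, so they are not independent of each other. Its 118375 peaks lay at a distance of 0.905 of the whole range from the next library. For listed peaks in MUC12, 6 in library 2 against 1, 1 and 0, the distance was 0.833. For MUC1, 5 against 0, 0 and 0, it was 1. For the opposite strand of MUC3A, 3 against 0, 0 and 0, it was 1, and for the opposite strand of the 8 windows together, 7 against 1, 0 and 1, it was 0.857. None of the log2 folds of the MUC3A regions stood apart in this way.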

How the results depend on the processing

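No paired analysis was possible because no peak list belongs to an input library, and each list already sets immunoprecipitation against input. Of 192 alternative values over 29 results, 190 stayed within 1.5 times a count or 1 SD of a value. The 2 others were the number of reproducible regions, 4 as reported and 7 when at least 2 of 4 libraries sufficed, and the median spacing of MUC3A peaks, 105 bases between peaks of a library and 191.5 bases between reproducible regions. Both follow from the regions that 2 libraries missed. Of the 190, 112 are counts of 0 for the genes other than MUC3A, which no alternative could have raised, since none lowered the p asked for. Looser folds likewise could change no count, share, region or spacing, as all listed MUC3A peaks passed already and no other peak met the p. Depth limits the folds, since 22 of 23 MUC3A peaks rest on at most 4 input reads, and for 14 peaks the read numbers are known only as a range.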
